A study of Rattus norvegicus with 30 samples.

Results

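The 7 liver transcription factor genes Foxa1, Foxa2, Foxa3, Onecut1, Prox1, Cebpa and Hnf4a were followed through 6 groups of cultured rat hepatocytes. They were chosen by name, as genes known to hold liver cells in their differentiated state, and every probe set annotated to 1 of them was taken. All 7 were found in the annotation, through 15 of the array's 31099 probe sets, against 14225 genes with a probe set of 1 symbol in all. A probe set is a group of short oligonucleotides that reads a transcript. Foxa1, Foxa2 and Foxa3 had 1 probe set each, Onecut1 and Prox1 had 2, Hnf4a had 3 and Cebpa had 5. For a gene with several, the probe set with the highest mean over all 30 arrays is called the lead one.

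The cells were frozen primary hepatocytes of male Sprague Dawley rats, a bought product, and were kept on collagen-coated plates under Matrigel. Cultures were dosed on day 3 with 300 µM or 3000 µM phenobarbital, a barbiturate used against seizures and the classic inducer of liver drug metabolism, or with vehicle, and RNA was taken 24 h or 48 h later. Each of the 6 groups (vehicle, 300 µM and 3000 µM at 24 h, and the same at 48 h) holds 5 wells of a culture plate with 1 array each, and the vehicle is water by the titles but culture medium by the agent field. The labels call the wells independent cultures and number no donor animals, so p-values here measure spread between wells.

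Foxa1, Foxa2 and Foxa3 are forkhead pioneer factors, which bind DNA in closed chromatin and open liver enhancers to other factors. Onecut1, also called HNF6, and Prox1 are homeobox factors of liver development, and Prox1 also acts as a corepressor of nuclear receptors. Cebpa encodes the leucine zipper factor C/EBPα, which drives metabolic genes and holds back proliferation, and Hnf4a encodes a nuclear receptor that occupies the regulatory regions of a large share of hepatocyte genes. The factors bind each other's promoters and enhancers, so that the set is often described as a network of mutual regulation. Hnf4a is transcribed from alternative promoters, of which the downstream one, P1, is used in the adult liver.

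Promoter sequences of 4 of the 7 genes were at hand from RefSeq, with 2 start sites for Hnf4a. They were searched on both strands for the letters of sites known for these factors. The 4 sequences below are printed because Foxa2 and Foxa3 answered differently to the drug and the Hnf4a probe sets disagreed. Whether the sequences bear on these contrasts was not tested. Each is the 250 bases before a start site on GRCr8, 5′ to 3′ in the direction of transcription, with motif matches in capitals.
Hnf4a upstream start, chr3:172605970-172606219 on the plus strand: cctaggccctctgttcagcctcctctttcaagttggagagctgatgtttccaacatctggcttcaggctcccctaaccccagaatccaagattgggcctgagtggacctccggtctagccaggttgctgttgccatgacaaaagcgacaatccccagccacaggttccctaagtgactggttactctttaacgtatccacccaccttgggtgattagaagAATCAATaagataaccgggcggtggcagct
Hnf4a downstream start, chr3:172641586-172641835 on the plus strand: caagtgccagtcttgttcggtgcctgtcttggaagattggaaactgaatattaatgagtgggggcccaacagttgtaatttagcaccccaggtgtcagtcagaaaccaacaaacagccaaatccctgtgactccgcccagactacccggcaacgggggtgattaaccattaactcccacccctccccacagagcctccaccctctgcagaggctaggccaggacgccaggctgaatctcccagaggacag
Foxa2, chr3:155927509-155927758 on the minus strand: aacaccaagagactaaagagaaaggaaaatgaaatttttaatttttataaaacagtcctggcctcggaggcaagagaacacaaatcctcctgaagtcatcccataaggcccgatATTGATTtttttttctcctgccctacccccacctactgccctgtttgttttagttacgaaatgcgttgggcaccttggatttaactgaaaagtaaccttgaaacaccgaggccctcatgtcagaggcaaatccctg
Foxa3, chr1:87799486-87799735 on the minus strand: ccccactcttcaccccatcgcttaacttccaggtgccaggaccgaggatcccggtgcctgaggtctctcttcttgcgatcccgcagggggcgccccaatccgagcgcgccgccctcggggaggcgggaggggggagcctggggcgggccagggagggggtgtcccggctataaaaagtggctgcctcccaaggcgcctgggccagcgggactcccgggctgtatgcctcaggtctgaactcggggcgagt

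The HNF6 core ATTGATT, present before 2.28% of the 33469 RefSeq starts, lay 30 bases before the upstream Hnf4a start on the opposite strand and 136 bases before the Foxa2 start. Cebpa, on chromosome 1, held the C/EBP half-site TTGCGC 194 bases before its start, a match found before 5.52% of starts. The HNF4A letters CAAAGT (12.9% of starts) and CAAAGTCCA (0.338%), the FOXA core TGTTTAC (3.21%) and the full C/EBP core TTGCGCAA (0.14%) were in none of these windows, and Foxa3 and the downstream Hnf4a start held no match to the letters named here. The shorter forms CAAAGT and TTGCGC lie within the longer ones. GC content was 42.8% before Foxa2 and 69.6% before Foxa3. These are matches of letters in windows, and no binding was measured.

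Values are log2 of the deposited signal with no constant added, and 1 unit is a 2-fold difference. A probe set was tested where its highest group mean reached 8.58, the median of all values (a signal of 384). This left 16596 probe sets and 13 of the 15 described here. Onecut1 1387760_a_at and Cebpa 1369658_at stayed under that level. Changes were fitted with limma over all 30 arrays, and called at a Benjamini-Hochberg adjusted p under 0.05 over the whole table. Rose and fell are used for calls.

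By 48 h at 3000 µM the lead probe sets of all factors but Foxa2 had fallen. At 24 h 7 of the 13 tested probe sets were called, all lower, in a comparison in which 32% of all tested probe sets were called and 14.8% were lower. At 48 h 11 were called, 9 lower and 2 higher, against 39.4% of all called and 19.9% lower. By lead probe set, 4 of 7 genes fell at 24 h and 6 of 7 at 48 h. The median change of the 7 leads was -0.38 at 24 h and -1.04 at 48 h, where the median over 9829 genes was 0.02 at both times. At 300 µM limma called none of the 13, at 24 h (2.99% of all called) or at 48 h (1.54% of all called). An unadjusted p under 0.05 was found for 1 of the 13 at 24 h and 5 at 48 h, against 2413 and 1973 of all 16596. The arrays are scaled to a common total, so a level is relative to the rest of each sample's RNA, and fewer cells of a type and less RNA per cell cannot be told apart.

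**Figure D1:**
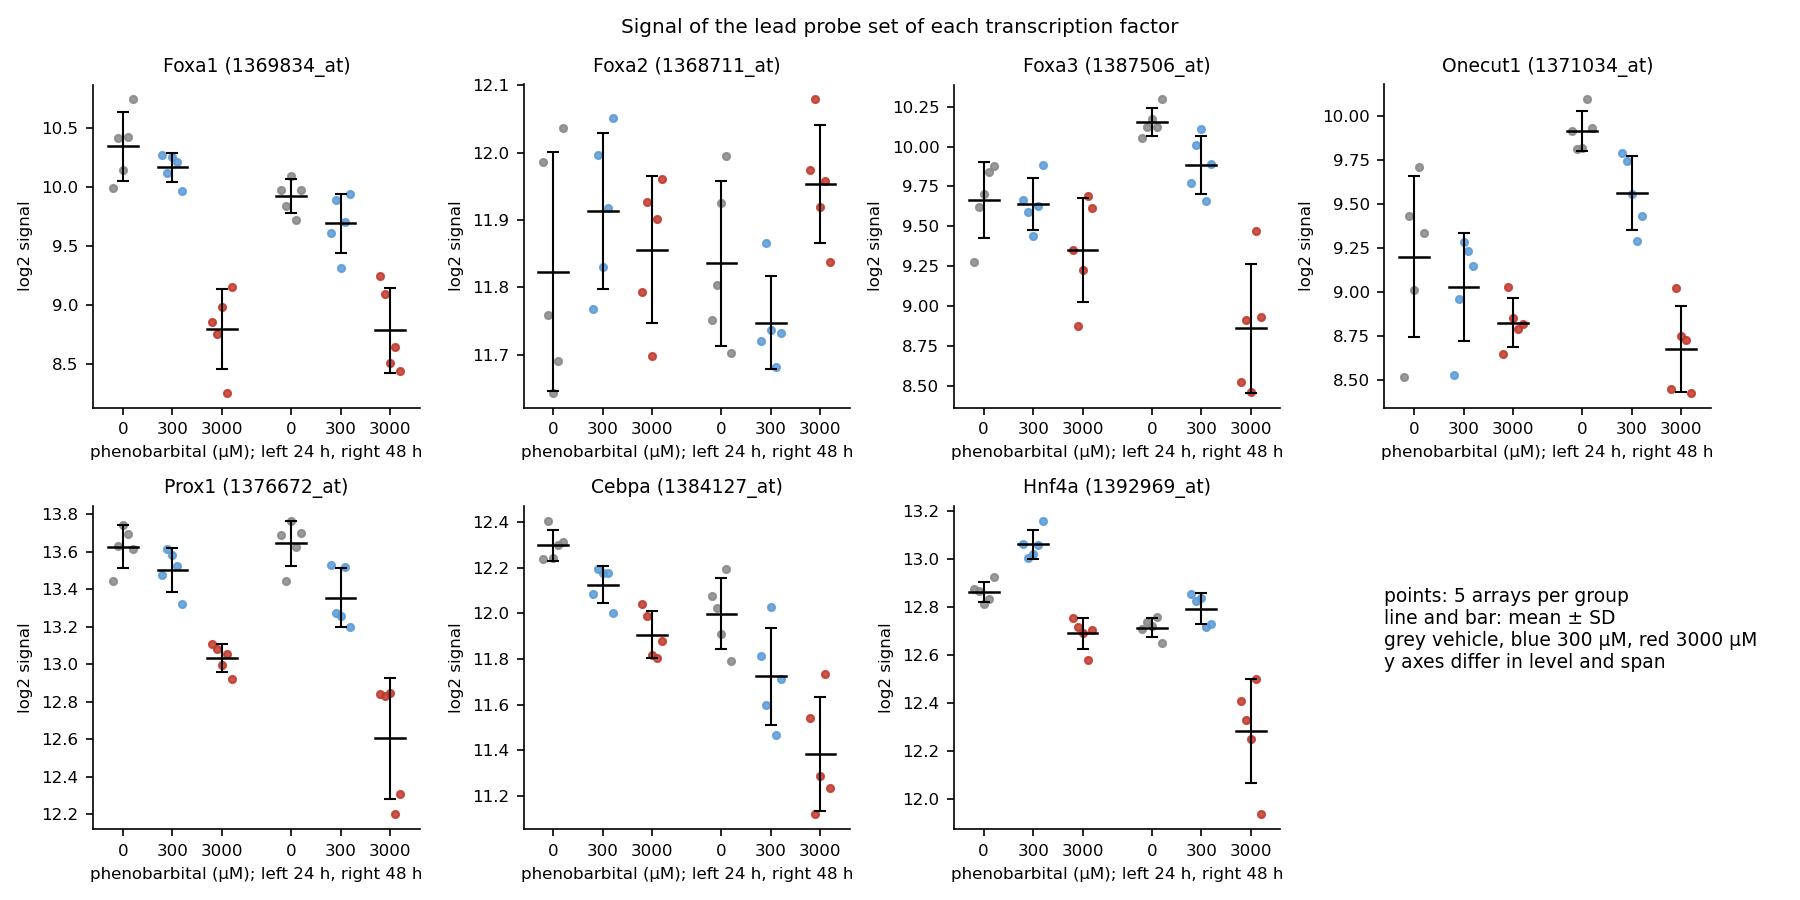
Log2 signal of the lead probe set of each gene on every array (points), with mean and SD (n = 5), for vehicle (0), 300 µM and 3000 µM phenobarbital at 24 h (left) and 48 h (right). The 3000 µM arrays lie below the vehicle arrays at both times for Foxa1, Prox1, Cebpa and Hnf4a and at 48 h for Foxa3 and Onecut1, while those of Foxa2 overlap with vehicle.

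Foxa1 had the largest fall of the 7 leads at 24 h. Vehicle arrays at 24 h read 9.99, 10.41, 10.14, 10.43 and 10.74 (arrays 1 to 5). The 300 µM arrays read 10.27, 10.12, 10.26, 10.21 and 9.97, and the 3000 µM arrays read 8.85, 8.75, 8.98, 8.25 and 9.15. All 5 arrays at 3000 µM were below all 10 others of that time. The mean went from 10.34 ± 0.29 (SD, n = 5) to 8.80 ± 0.34, a 2.92-fold fall (log2 change -1.55, SE 0.16, limma adjusted p = 4.77e-09). At 48 h the vehicle arrays read 9.97, 9.84, 10.09, 9.72 and 9.98, and the 300 µM arrays 9.61, 9.89, 9.31, 9.71 and 9.94. Those at 3000 µM read 9.24, 9.09, 8.51, 8.65 and 8.44. Again the groups at 0 and 3000 µM did not overlap, with a 2.2-fold fall (log2 change -1.13, SE 0.16, limma adjusted p = 9.52e-07). At 3000 µM the means at 24 h and 48 h differed by -0.01 (95% interval -0.35 to 0.32), and some of these arrays, 1 at 24 h and 2 at 48 h, were below the level needed for testing. The change of the 3000 µM effect between the times, 0.41, was not called (limma adjusted p = 0.345).

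Foxa3 fell later. The 24 h arrays read 9.28, 9.62, 9.70, 9.84 and 9.88 in vehicle and 9.35, 8.88, 9.23, 9.69 and 9.62 at 3000 µM. These overlapped, with a log2 change of -0.31 (SE 0.16, limma adjusted p = 0.138). It was -0.19 without array 2 of the 3000 µM group (limma adjusted p = 0.399) and -0.41 without array 1 of the vehicle group (limma adjusted p = 0.0565), neither called. Vehicle arrays at 48 h read 10.05, 10.12, 10.17, 10.12 and 10.30, tightly grouped, and 300 µM arrays 9.77, 10.01, 10.11, 9.66 and 9.89. At 3000 µM the 48 h arrays read 8.53, 8.92, 8.46, 9.47 and 8.93, all below both other groups. That is a 2.45-fold fall (log2 change -1.29, SE 0.16, limma adjusted p = 4.65e-08). The effect of 3000 µM was larger at 48 h than at 24 h, by 0.98 on the log2 scale (limma adjusted p = 0.0111). The vehicle mean was 0.49 higher at 48 h than at 24 h (limma adjusted p = 0.0541, not called) and the 3000 µM mean fell by 0.49 (limma adjusted p = 0.034). The fall between times at 3000 µM was not called without array 1, 4 or 5 of the 24 h group or array 1 or 3 of the 48 h group, where the adjusted p was 0.0584 to 0.113.

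Foxa2 stayed near 1 level in all 6 groups, whose means spanned 0.21. Vehicle arrays read 11.99, 11.76, 11.64, 11.69 and 12.04 at 24 h and 11.75, 11.80, 11.93, 11.995 and 11.70 at 48 h. Arrays at 3000 µM read 11.79, 11.93, 11.70, 11.90 and 11.96 at 24 h and 11.97, 12.08, 11.92, 11.96 and 11.84 at 48 h. The groups overlapped at both times. The change was 0.03 at 24 h (95% interval -0.12 to 0.19, limma adjusted p = 0.791) and 0.12 at 48 h (95% interval -0.04 to 0.27, limma adjusted p = 0.235), so a fall of the size seen for Foxa1 lies outside both intervals. Against 300 µM at 48 h, where arrays read 11.72, 11.87, 11.74, 11.68 and 11.73, Foxa2 was 0.21 higher at 3000 µM (limma adjusted p = 0.0345). That call was lost when array 1, 3, 4 or 5 of the 300 µM group or array 1 or 2 of the 3000 µM group was left out, with changes of 0.18 to 0.20 and adjusted p of 0.0559 to 0.0948.

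The contrast between the 3 Foxa genes was tested within arrays, where a common scale factor cancels. Their probes differ, so the difference on an array has no absolute meaning, and its change with treatment shows unequal change. Foxa1 minus Foxa2 was -1.48 ± 0.30 in vehicle and -3.06 ± 0.37 at 3000 µM at 24 h (n = 5 each), a change of -1.58. The exact permutation test gave p = 0.00794, the smallest that 5 against 5 arrays allow, and 0.0278 after adjustment over the 28 such tests. At 48 h the change was -1.25 (adjusted exact p = 0.0278). Foxa3 minus Foxa2 changed by -0.34 at 24 h (adjusted exact p = 0.286) and by -1.41 at 48 h (adjusted exact p = 0.0278). Foxa1 thus fell relative to Foxa3 at 24 h (change -1.23, adjusted exact p = 0.0278) and not detectably at 48 h (0.16, adjusted exact p = 0.704). The 24 h change of Foxa3 minus Foxa2 was -0.48 without array 1 of the vehicle group (adjusted exact p = 0.0494) and -0.21 without array 2 of the 3000 µM group (adjusted exact p = 0.421). Without array 3 or array 4 of that group, both 24 h differences with Foxa1 had an adjusted exact p of 0.0556. The changes were then -1.58 and -1.52 against Foxa2 and -1.29 and -1.26 against Foxa3. Leaving out any array of the compared groups raises the smallest p possible, and the adjusted p depends on the other tests too.

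**Figure D2:**
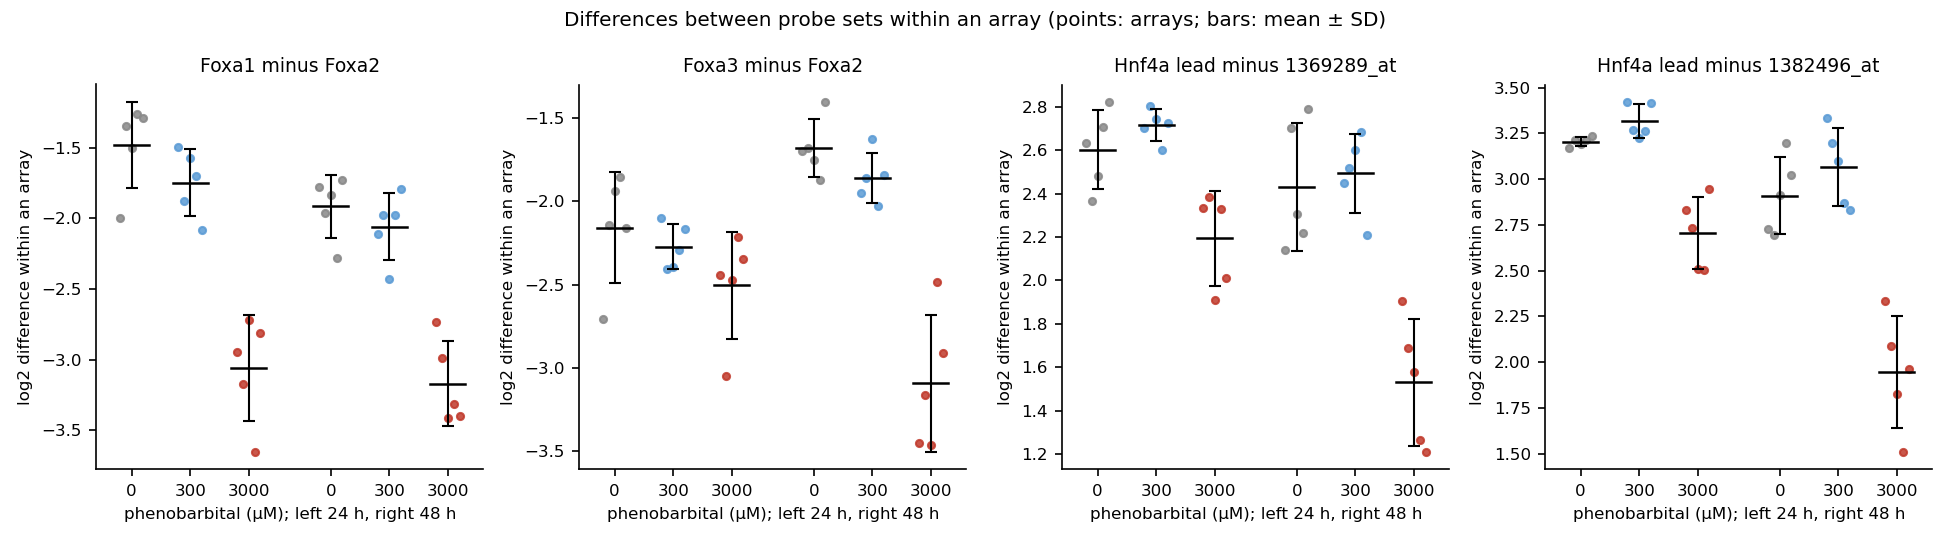
Differences of log2 signal between 2 probe sets on the same array (points), with mean and SD (n = 5), by phenobarbital dose (µM) at 24 h (left) and 48 h (right). Foxa1 minus Foxa2 lies between -3.65 and -2.72 on the 24 h arrays at 3000 µM and between -1.998 and -1.264 in vehicle, and the Hnf4a lead minus either other Hnf4a probe set is lower at 3000 µM.

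Onecut1 (1371034_at) rose from 24 h to 48 h in vehicle, and no such rise was called at 3000 µM. Vehicle arrays at 24 h read 8.51, 9.43, 9.01, 9.71 and 9.33, array 1 being the lowest. At 48 h they read 9.91, 9.81, 9.82, 10.09 and 9.93, all above the 24 h ones. This is a rise of 0.72 (SE 0.17, limma adjusted p = 0.00772). The 3000 µM arrays read 8.64, 9.03, 8.85, 8.79 and 8.82 at 24 h and 8.45, 9.02, 8.75, 8.73 and 8.42 at 48 h, and differed between times by -0.15 (95% interval -0.50 to 0.20). Against vehicle the change was -0.38 at 24 h (limma adjusted p = 0.0967, with overlap) and -1.24 at 48 h (SE 0.17, limma adjusted p = 4.63e-07, with no overlap), a 2.36-fold fall. The 24 h change was -0.55 and called without array 1 of the vehicle group (limma adjusted p = 0.0089), and -0.25 and not called without array 4 of that group (limma adjusted p = 0.306). The change of effect between times was -0.87 (limma adjusted p = 0.038), and it missed the threshold without any 1 of 11 of the 20 arrays concerned, with an adjusted p of up to 0.0750. At 300 µM the 48 h arrays read 9.79, 9.74, 9.56, 9.29 and 9.43, all below vehicle, and the change of -0.35 was not called (limma adjusted p = 0.418).

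The other Onecut1 probe set, 1387760_a_at, was dim, with a mean of 8.18 ± 0.25 in vehicle at 24 h and 8.39 ± 0.26 at 48 h. At 3000 µM it read 7.30, 7.89, 7.56, 7.18 and 7.81 at 24 h and 7.62, 7.89, 7.80, 8.35 and 7.73 at 48 h. Fitted without the filter, it changed by -0.64 at 24 h (limma adjusted p = 0.0397) and by -0.51 at 48 h (limma adjusted p = 0.101). The lead minus this probe set fell by 0.73 at 48 h (adjusted exact p = 0.0278), so the pair moved unequally. Onecut2, a close relative of Onecut1, changed by -0.32 at 24 h (limma adjusted p = 0.00972) and by -0.96 at 48 h (limma adjusted p = 5.85e-10). It also fell at 300 µM at 48 h, by 0.37 (limma adjusted p = 0.0356).

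Prox1 (1376672_at) fell at both times. Vehicle arrays read 13.44, 13.63, 13.75, 13.70 and 13.61 at 24 h and 13.69, 13.45, 13.76, 13.63 and 13.70 at 48 h. At 300 µM they read 13.48, 13.62, 13.58, 13.52 and 13.32 and 13.53, 13.27, 13.26, 13.52 and 13.20. At 3000 µM they read 13.11, 13.08, 12.99, 13.06 and 12.92 and 12.84, 12.83, 12.85, 12.20 and 12.31. The 3000 µM arrays were below all vehicle and 300 µM arrays of their time, and arrays 4 and 5 of the 48 h group were lowest. The fall was 1.51-fold at 24 h (log2 change -0.59, SE 0.10, limma adjusted p = 1.85e-05) and 2.06-fold at 48 h (log2 change -1.04, SE 0.10, limma adjusted p = 4.18e-10). Vehicle groups differed between times by 0.02 (95% interval -0.18 to 0.22), while the 3000 µM mean fell by 0.43 (limma adjusted p = 0.00304). The change of effect between times, -0.45, was not called (limma adjusted p = 0.0653), though it was when array 2 of the 48 h vehicle group or array 1, 2 or 3 of the 48 h group at 3000 µM was left out (-0.51 to -0.50, adjusted p of 0.0293 to 0.042). The dim probe set 1381417_at had means of 8.38 to 9.03, an SD of up to 0.76, and no called change from vehicle (0.05 at 24 h and -0.38 at 48 h, limma adjusted p = 0.912 and 0.301).

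Cebpa fell at both times in each of its 4 tested probe sets, with changes of -0.55 to -0.39 at 24 h and -0.67 to -0.32 at 48 h. The lead, 1384127_at, read 12.24, 12.41, 12.24, 12.30 and 12.31 in vehicle and 12.04, 11.99, 11.82, 11.81 and 11.88 at 3000 µM at 24 h. Its 300 µM arrays read 12.08, 12.19, 12.18, 12.18 and 12.0002, below all vehicle arrays, with a change of -0.17 that was not called (limma adjusted p = 0.438). At 48 h it read 12.07, 12.02, 11.91, 12.20 and 11.79 in vehicle and 11.54, 11.12, 11.29, 11.74 and 11.24 at 3000 µM. The vehicle and 3000 µM arrays did not overlap at either time. The fall was 1.31-fold at 24 h (log2 change -0.39, SE 0.10, limma adjusted p = 0.00184) and 1.53-fold at 48 h (log2 change -0.61, SE 0.10, limma adjusted p = 4.13e-06). Levels were also lower at the later time. The lead's 48 h mean was 0.30 below its 24 h mean in vehicle (limma adjusted p = 0.0533, not called), and it fell by 0.40 at 300 µM (limma adjusted p = 0.00898) and by 0.52 at 3000 µM (limma adjusted p = 0.000242). Probe set 1383242_a_at fell between the vehicle groups too, by 0.40 (limma adjusted p = 0.0263), a call lost without array 1, 3 or 5 of the 24 h group or array 2, 3 or 4 of the 48 h group (adjusted p of 0.0502 to 0.0696).

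The Cebpa probe sets had a wider range of changes at 48 h, where the differences between them were not tested. There 1383242_a_at changed by -0.67 and 1384126_a_at by -0.61, while 1383243_at changed by -0.32 (limma adjusted p = 0.0368). The last call was lost when array 1, 3 or 4 of the vehicle group or array 1, 3 or 5 of the 3000 µM group was left out, with changes of -0.32 to -0.24 and adjusted p of 0.0502 to 0.139. The fifth, 1369658_at, was below the level for testing in all groups. At 48 h it read 8.21, 8.38, 8.84, 7.91 and 8.07 in vehicle, and the arrays at 3000 µM read 7.91, 4.45, 6.98, 7.58 and 8.15 and array 2 stood far below the rest. Of the relatives of Cebpa, Cebpb changed by 0.02 and 0.20 (24 h and 48 h, limma adjusted p = 0.913 and 0.11). Cebpd, an acute-phase and stress-responsive member of the family, rose by 0.62 and 0.77 (limma adjusted p = 0.00355 and 0.000292).

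**Figure D3:**
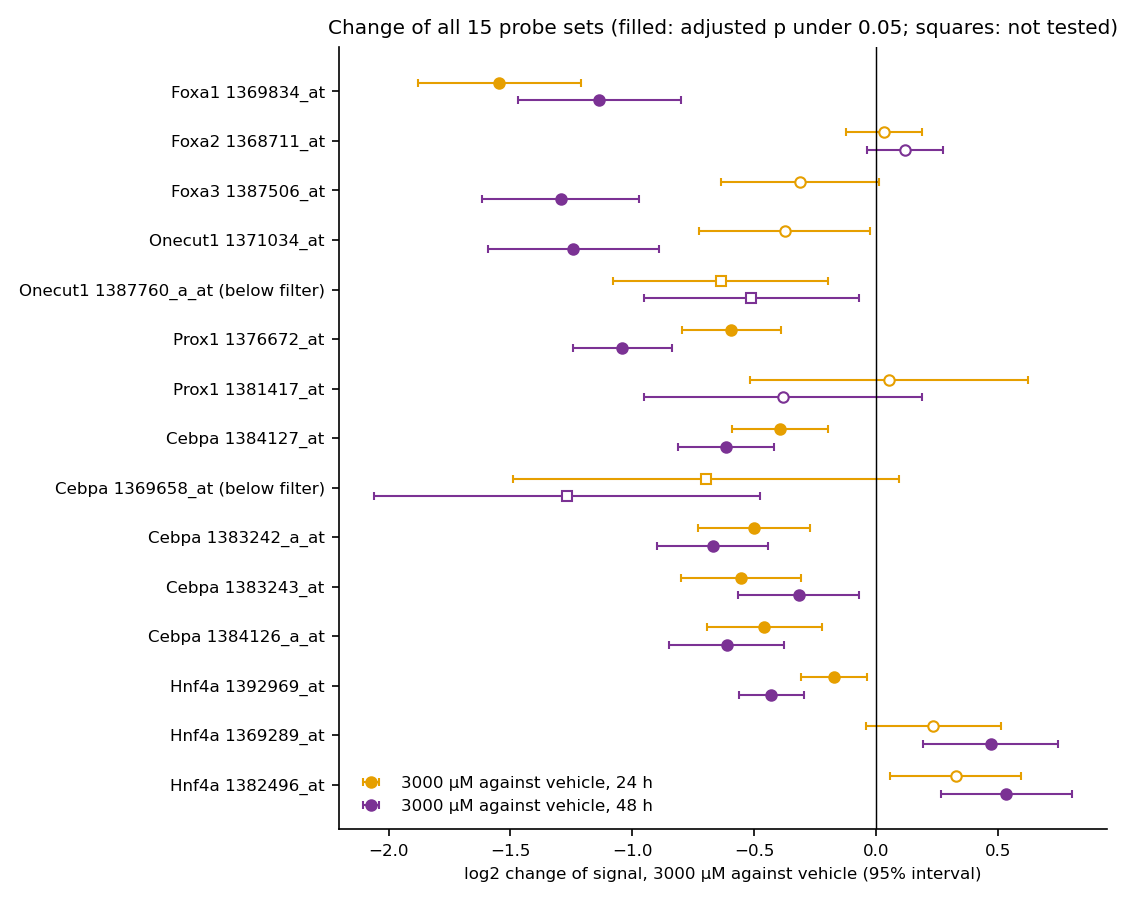
Log2 change of signal at 3000 µM against vehicle for all 15 probe sets, with 95% intervals, at 24 h and 48 h. Filled circles are called changes, open circles tested ones that were not called, and squares the 2 probe sets below the level for testing. Intervals of Foxa2 include 0, and of the 3 Hnf4a probe sets the lead lies left of 0 and the others right of it.

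Hnf4a gave opposite results by probe set. The lead, 1392969_at, read 12.87, 12.87, 12.81, 12.83 and 12.92 in vehicle at 24 h. At 300 µM it read 13.06, 13.002, 13.02, 13.06 and 13.16, above all vehicle arrays, with a change of 0.20 that was not called (limma adjusted p = 0.109). At 3000 µM it read 12.75, 12.72, 12.69, 12.58 and 12.70, below all vehicle arrays. The 2 doses thus lay on either side of vehicle, and the difference between 3000 µM and 300 µM was -0.37 (limma adjusted p = 5e-05). Against vehicle the 3000 µM change at 24 h was small, -0.17 (SE 0.07, limma adjusted p = 0.0426). That call was lost without any 1 of 8 of the 10 arrays (adjusted p of up to 0.12), and with array medians centred (-0.11, adjusted p = 0.312).

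At 48 h the lead read 12.71, 12.73, 12.72, 12.76 and 12.65 in vehicle and 12.85, 12.82, 12.84, 12.72 and 12.73 at 300 µM. At 3000 µM it read 12.41, 12.33, 12.25, 12.50 and 11.94. All 5 were below vehicle, a 1.35-fold fall (log2 change -0.43, SE 0.07, limma adjusted p = 2.54e-06). Between times the lead fell by 0.27 at 300 µM (limma adjusted p = 0.0108) and by 0.41 at 3000 µM (limma adjusted p = 4.08e-05), and its vehicle mean was 0.15 lower (limma adjusted p = 0.19, not called).

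Probe set 1369289_at read 10.56, 10.04, 10.41, 10.54 and 9.86 in vehicle at 48 h and 10.50, 10.64, 10.67, 11.24 and 10.72 at 3000 µM, and 1382496_at read 9.98, 10.04, 9.81, 9.56 and 9.63 and 10.07, 10.24, 10.42, 10.99 and 9.97. Array 4 at 3000 µM was the highest in both, and in each the groups overlapped. Both rose at 48 h, by 0.47 (limma adjusted p = 0.0057) and 0.54 (limma adjusted p = 0.0014). Without array 4 the changes were 0.35 and 0.37 and stayed called. At 24 h they changed by 0.24 (limma adjusted p = 0.198) and 0.33 (limma adjusted p = 0.0564), neither called. The second was called without array 5 of the 3000 µM group (0.38, limma adjusted p = 0.0357).

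Within arrays, the lead minus 1369289_at went from 2.43 ± 0.29 to 1.53 ± 0.29 at 48 h (n = 5 each), a change of -0.90. The lead minus 1382496_at changed by -0.97. Both had an adjusted exact p of 0.0278. At 24 h the changes were -0.41 (adjusted exact p = 0.0444) and -0.50 (adjusted exact p = 0.0278). At 300 µM the lead rose relative to 1382496_at at 24 h by 0.11 (adjusted exact p = 0.0444), opposite in sign to 3000 µM. This value, and the 24 h value at 3000 µM against 1369289_at, missed the threshold without any 1 of 8 of the 10 arrays concerned. The adjusted exact p was then 0.0741 to 0.0889. With all arrays both had an unadjusted exact p of 0.0159, above the smallest possible, 0.00794. Where each probe set lies in the Hnf4a transcripts was not analysed here, so none can be assigned to the upstream or the downstream start printed above.

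**Figure D4:**
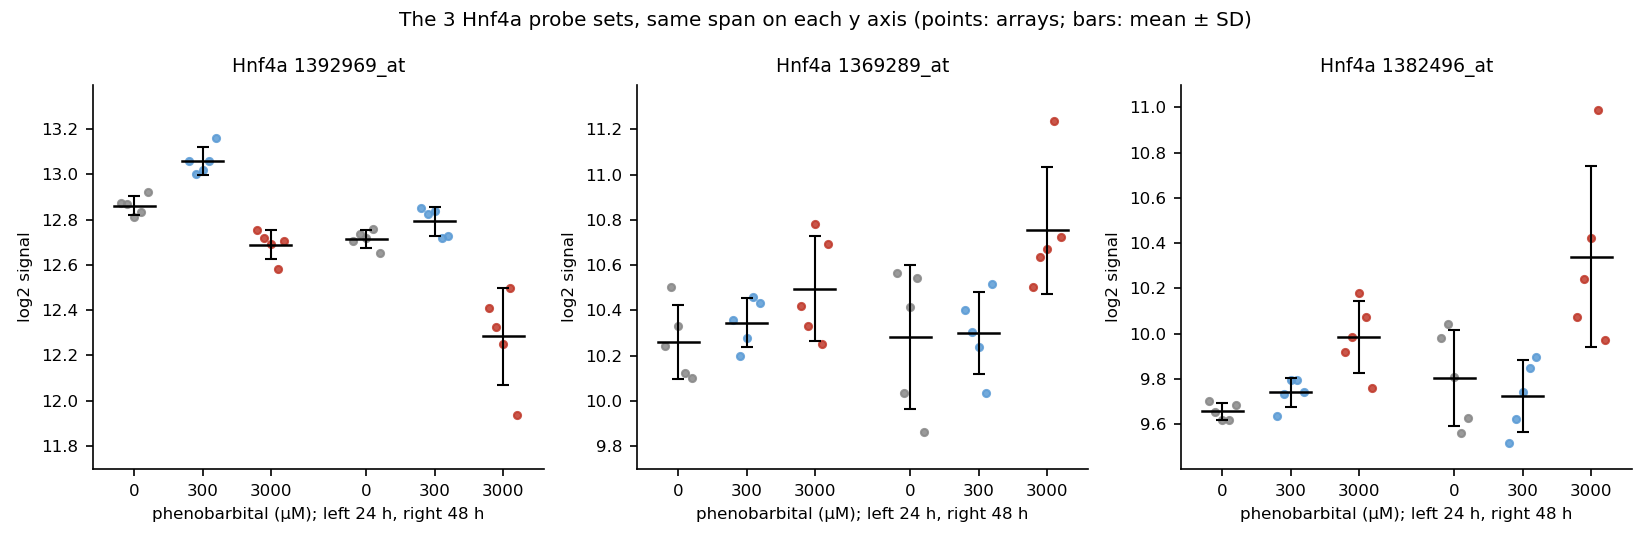
Log2 signal of the 3 Hnf4a probe sets on every array (points), with mean and SD (n = 5), by phenobarbital dose (µM) at 24 h (left) and 48 h (right), with the same span on each vertical axis. The lead probe set falls at 3000 µM, from 12.71 to 12.28 at 48 h, where the other 2 rise from 10.28 to 10.75 and from 9.80 to 10.34.

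Both doses set against each other gave 5 called probe sets at 24 h (26.1% of all called), all lower at 3000 µM, and 10 at 48 h (34.9% of all called), 7 lower and 3 higher. The 3 higher were Foxa2 and the 2 Hnf4a probe sets that rose against vehicle. These comparisons share the 3000 µM arrays with those above. Between the times, 2 probe sets were called in vehicle (7.2% of all called), Onecut1 higher and Cebpa 1383242_a_at lower. At 300 µM 4 were called (5.19% of all called), 3 of Cebpa and the Hnf4a lead, all lower. At 3000 µM 6 were called (14% of all called), all lower, namely Foxa3, Prox1, the Hnf4a lead and 3 of Cebpa. The effect of 3000 µM changed between times in 2 probe sets (4.15% of all called), Foxa3 and Onecut1. The effect of 300 µM changed in none by limma (0% of all called), and 0 of the 13 had an unadjusted p under 0.05 there, against 1251 of all 16596.

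The order of the 6 group means sorted the genes into patterns. For Foxa1 the means ran from vehicle at 24 h (10.34) through 300 µM at 24 h (10.17) and vehicle at 48 h (9.92) to 300 µM at 48 h (9.69), each overlapping with the next, and both 3000 µM groups lay apart below them. Foxa3 and Onecut1 shared an order in which vehicle at 48 h was highest, then 300 µM at 48 h, and 3000 µM at 48 h lowest. For Foxa3 every neighbouring pair in that order overlapped, and for Onecut1 all but the first. For the Cebpa lead vehicle at 24 h was highest and lay apart from 300 µM at 24 h, and from there each group overlapped with the next, down to 11.38 at 3000 µM at 48 h. For Prox1 the vehicle and 300 µM groups overlapped in turn, and 3000 µM at 24 h (13.03) and at 48 h (12.60) each lay apart. For the Hnf4a lead the extremes, 300 µM at 24 h (13.06) and 3000 µM at 48 h (12.28), lay apart, and the 4 groups between them overlapped in turn. For Foxa2 all neighbouring groups overlapped. At both times the vehicle, 300 µM and 3000 µM means of Foxa1, Foxa3, Onecut1, Prox1 and the Cebpa lead stood in that order, with no step from vehicle to 300 µM called.

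Genes with the most similar pattern were found by the root mean square (RMS) difference of the 6 group means, each gene centred on its own mean, among 9828 genes. For Foxa1 these were Rem1 (RMS difference 0.077), Zfp354a (0.0979) and Sardh (0.106). For Foxa3 they were Ccne2, Gcnt4 and Sphk1 (0.095 to 0.118), and for Onecut1 they were Sdr16c5, Adam8 and Mcf2l (0.0862 to 0.0996). Prox1 was matched most closely by Parva, Ccdc68 and Slc6a13 (0.0328 to 0.054), and Cebpa by Trim14, Gchfr and Tdo2 (0.0676 to 0.0712). The Hnf4a lead was nearest to Lrrc51, Kctd5 and Atl2 (0.0442 to 0.0446). Foxa2, which hardly varied, was nearest to Hp1bp3, Lin52 and Dhx16 (0.0149 to 0.0273). The 6 means share their arrays, and the values are descriptions.

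Genes known to be bound or driven by the factors were taken as lists, with 1 probe set per gene. Over all 9829 such genes at 3000 µM, 15.9% were lower and 20.1% higher at 24 h, and 20.1% lower and 23.3% higher at 48 h. Of 24 tested HNF4A target genes 21 fell and none rose at 24 h (median change -0.46; 1 rose and 23 fell at an unadjusted p under 0.05). At 48 h 14 fell and none rose (median -0.55; 1 and 15 unadjusted). Of 19 tested C/EBPα targets 13 fell and none rose at 24 h (median -0.41; 1 rose unadjusted), and 10 fell and 1 rose at 48 h (median -0.31). Of 16 tested FOXA targets 11 fell and none rose at 24 h (median -0.41; 1 rose unadjusted), and 9 fell and none rose at 48 h (median -0.51; 1 rose unadjusted). The lists share genes, so the counts are not separate evidence. The lists were also chosen with earlier results of these data known, which may raise their shares over those of all genes. Without 2 arrays that stand apart (described further on), the counts of HNF4A, C/EBPα and FOXA targets were 23, 14 and 12 falling at 24 h, with 1, 2 and 1 rising, and 16, 11 and 9 falling at 48 h, with 0, 1 and 0 rising. At 300 µM limma called 2.99% of all tested probe sets at 24 h and 1.54% at 48 h. Of the 24 HNF4A targets 2 rose and none fell at 24 h, and 2 rose and 2 fell at 48 h. Of the 19 C/EBPα targets 1 fell and none rose at 24 h, and none was called at 48 h. Of the 16 FOXA targets 1 rose and 2 fell at each time. At an unadjusted p under 0.05, 13 HNF4A, 10 C/EBPα and 10 FOXA targets fell at 24 h, and 2, 0 and 1 rose. There 2413 of all 16596 probe sets passed in either direction. Between the vehicle groups, where 7.2% of all tested probe sets were called, 7 HNF4A targets fell with time and none rose (13 fell and 0 rose unadjusted). Without the 2 arrays that stand apart 10 fell and 0 rose. Of the C/EBPα targets 4 fell and 1 rose with time in vehicle, and of the FOXA targets 3 fell and 1 rose.

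Cyp8b1, the sterol 12α-hydroxylase of bile acid synthesis, fell most among HNF4A targets, with log2 changes of -3.50 at 24 h and -2.93 at 48 h (limma adjusted p = 8.22e-15 and 1.82e-13). Cyp7a1, the rate-limiting enzyme of bile acid synthesis, rose at 300 µM by 1.81 and 1.02 (limma adjusted p = 2.05e-05 and 0.024). At 3000 µM it changed by -1.28 and -1.57 (limma adjusted p = 0.000138 and 5.29e-06). The 2 doses thus moved it in opposite directions. Slc10a1, the sodium-dependent bile acid uptake carrier, changed by -1.41 and -1.52, and Pklr, the liver pyruvate kinase, by -1.33 and -1.34, all called. Among C/EBPα targets, all called at both times, Gys2, the liver glycogen synthase, changed by -1.67 and -1.97, and Bhmt, which remethylates homocysteine, by -1.53 and -1.81. Hamp, the iron hormone hepcidin, changed by -0.77 and -1.80, and Fabp1, the liver fatty acid binding protein, by -0.84 and -1.30. Cpt1a, which lets fatty acids into mitochondria, led the FOXA targets with -1.54 and -1.74.

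**Figure D5:**
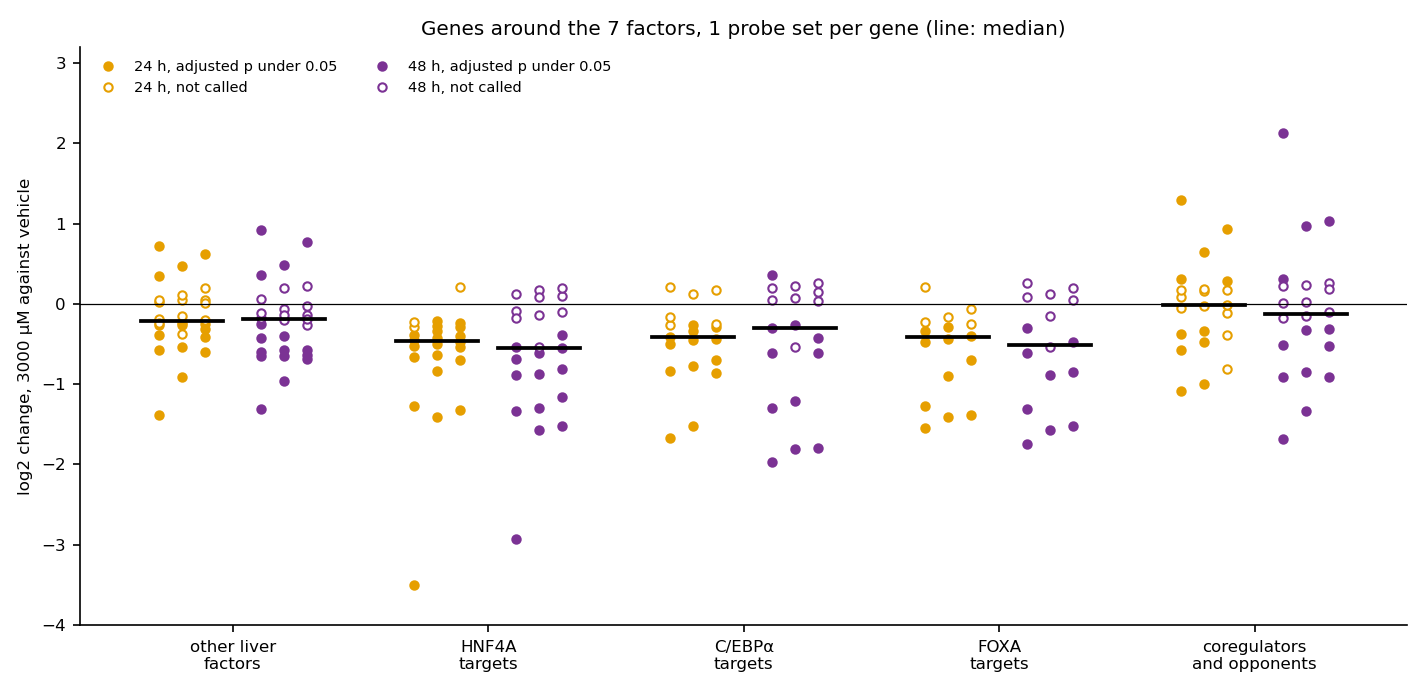
Log2 change at 3000 µM against vehicle of the tested genes in 5 lists around the 7 factors, at 24 h and 48 h, 1 point per gene, with the list's median as a line and called changes filled. Medians of the 3 target lists lie between -0.55 and -0.31, against 0.02 over all genes.

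Other liver factors were mixed. Of 28 tested, 4 rose and 12 fell at each time (medians -0.21 and -0.19). Nr1i3, the constitutive androstane receptor through which phenobarbital acts, fell by 1.39 and 1.31, and Nr1h4, the bile acid receptor FXR, by 0.90 and 0.43. Esrra, a nuclear receptor of mitochondrial genes, rose by 0.72 and 0.92 (limma adjusted p for these genes at most 0.000656). Nr0b2, a repressor of HNF4A, was below the level for testing.

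Among coregulators and opponents of the factors, 5 of 22 tested rose and 6 fell at 24 h, and 4 rose and 9 fell at 48 h. Ddit3, which encodes CHOP, a stress-induced partner that blocks DNA binding by C/EBP proteins, rose by 1.29 and 2.12 (limma adjusted p = 6.5e-13 and 1.98e-18). Foxo1, which drives gluconeogenic genes, fell by 1.69 at 48 h (limma adjusted p = 0.0137) from a dim level. Ccn2, a matrix gene induced by YAP, fell by 1.004 and 1.34, and Id2, an inhibitor of helix-loop-helix factors, by 1.09 and 0.91, all called. Ccn2 fell at 300 µM too, by 0.86 at 24 h and 0.63 at 48 h (limma adjusted p = 3.65e-07 and 6.39e-05).

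The cultures carried hepatocyte markers. All 7 with a probe set (of 8 listed) were above the level for testing. At 3000 µM 5 of them fell and none rose at 24 h by limma (0 rose at an unadjusted p under 0.05), and 2 fell at 48 h. At 300 µM at 24 h limma called none of the 7, and 5 fell at an unadjusted p under 0.05, where 2413 of all 16596 probe sets passed in either direction. The summed signal of the 7 at 24 h was 501905 to 666173 in vehicle, 406288 to 494828 at 300 µM and 426114 to 461172 at 3000 µM. Both doses thus lay below vehicle. A link between these sums and the levels of the factors was not tested. At 48 h the sums overlapped, with 440527 to 518423 in vehicle, 432024 to 508146 at 300 µM and 411854 to 714052 at 3000 µM. The median log2 change of the 7 at 3000 µM at 48 h was 0.09 with all arrays. Without the 2 arrays that stand apart it was -0.06, and 2 of the 7 fell in both fits. Of markers of other cells, 5 of 6 cholangiocyte genes, 6 of 7 endothelial genes, 4 of 8 stellate cell and fibroblast genes and 2 of 7 macrophage genes were below the level for testing in every group, among them Krt7, Krt19, Pecam1, Vwf, Col1a2, Pdgfrb, Cd163 and Adgre1. Cholangiocyte sums were 9285 to 10866 in vehicle and 9629 to 10857 at 3000 µM at 24 h. At 48 h they did not overlap, with 11870 to 12796 in vehicle and 10415 to 11679 at 3000 µM. Of the 6 cholangiocyte genes only Epcam was tested, with a log2 mean of 13.20 in vehicle at 24 h and 13.47 at 48 h. These sums thus read mostly Epcam. At 3000 µM Epcam changed by 0.05 at 24 h (limma adjusted p = 0.473) and by -0.14 at 48 h (limma adjusted p = 0.0289). Without the 2 arrays that stand apart its 48 h change was -0.11 and was not called. Stellate cell sums were 2805 to 3548 and 2283 to 2863 at 24 h, and 2920 to 3697 and 2621 to 3409 at 48 h. Macrophage sums were 2697 to 3802 and 2515 to 3005 at 24 h, and 2486 to 3036 and 2678 to 3885 at 48 h. The 5 tested macrophage genes moved unequally at 3000 µM. Cd68 rose by 0.54 at 24 h and 0.80 at 48 h (limma adjusted p = 0.0179 and 0.000411). C1qa and C1qb fell at 24 h, by 0.81 and 1.62 (limma adjusted p = 0.014 and 0.00347), and were not called at 48 h. Csf1r and Clec4f were called at neither time. Endothelial sums were 1203 to 2142 and 1353 to 1875 at 24 h, and 1258 to 1760 and 924 to 1471 at 48 h. The part of these cells in the results was not tested.

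Array medians ran from 349 to 425 in signal. In the bioB hybridization control, array 1 of vehicle at 24 h read 12.32 and array 4 of 3000 µM at 48 h read 12.78, against 10.99 to 11.48 on the others, and the latter had the largest 3′ to 5′ difference of beta-actin, 1.91 against 1.36 to 1.60. Without both, Cebpa 1369658_at reached the level for testing, and 10 of then 14 probe sets were called at 3000 µM at 24 h and 12 at 48 h, in place of 7 and 11. The added one at 48 h was Cebpa 1369658_at, on which array 2 at 3000 µM stood far below the rest. The added ones at 24 h were Foxa3 (-0.41, limma adjusted p = 0.0244), Onecut1 (-0.55, limma adjusted p = 0.00825) and Hnf4a 1382496_at (0.34, limma adjusted p = 0.0196).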

How the data were processed

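RNA of 30 wells was hybridized to 1 Affymetrix rat array each. Intensity values are the linear signals the authors deposited, made with MAS5 per the submitters' processing notes. Their trimmed mean is nearly equal on all arrays, so totals are relative. Detection calls and probe positions were not used here, and no sample column was left out. Log2 signals of 16596 probe sets passing the level given above were fitted with limma 3.58.1 (R 4.3.3) on 6 group means, with trended, robust eBayes and Benjamini-Hochberg adjustment per comparison. Data for 3000 µM against vehicle at 24 h were simulated with 16465 probe sets, 50 of them changed at each size. The fit recovered 28% of 1.25-fold, 78% of 1.5-fold, 90% of 2-fold and 100% of 3-fold changes. Far fewer probe sets were changed there than the 32% called in the real comparison, so these rates need not hold for it. The number of arrays limits precision. Within-array differences were compared with 2-sided exact permutation tests. These, and the list counts without 2 arrays, were chosen after seeing the data.

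Genes and lists were chosen with earlier results of these data known. Named list genes are the up to 4 with the largest absolute change at 3000 µM among those called, plus the paralogs and Nr0b2. Gene symbols are those of the platform annotation: 20843 probe sets have 1 symbol, 425 several and 9831 none. A factor and a motif of the lists are not reported here. Other scalings, constants (16 and 100), filters, weights, probe sets, a block by running number, fits on the compared groups and leaving out each array were tried.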

Additional observations from a re-analysis of the deposited data

Results flagged for a closer look

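In 5 of the 90 groups of values (15 probe sets in 6 groups), or 5.56%, 1 array stood far from the others by Dixon's test, which chance gives in about 1 of 20 groups. Onecut1 1387760_a_at read 7.89 on array 3 of the 300 µM group at 48 h, the lowest there. Cebpa accounted for the other 4. Probe set 1383242_a_at read 11.83 on array 2 of the 24 h vehicle group, the lowest. Probe set 1383243_at read 10.37 on array 4 of the 24 h group at 3000 µM and 11.02 on array 5 of the 48 h group at 300 µM, the lowest in each. Probe set 1384126_a_at read 11.47 on array 4 of the 24 h group at 300 µM, the highest. Without array 4 of the 24 h group at 3000 µM, the difference of Cebpa 1383243_at between 3000 µM and 300 µM was -0.23 and was not called (limma adjusted p = 0.0929).

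The effect of 3000 µM differed between 24 h and 48 h, by the test of that difference, for Foxa3 (-0.98) and Onecut1 (-0.87), both lower at 48 h.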

How the results depend on the processing

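Of 47 called changes of single probe sets, 35 kept direction and call in every setting that refitted the same probe set and still tested it. None turned when its own probe set was refitted. Settings in which another probe set stood for the gene are left out of these counts. Of 96 that were not called, 19 were called in some setting of the same probe set. Among the called changes, directions turned only where another probe set stood for the gene. Turns of direction among changes that were not called are not described here. In place of the Hnf4a lead, 1369289_at gave 0.24 and 0.47 against vehicle at 24 h and 48 h, 0.15 and 0.46 for 3000 µM against 300 µM, and 0.26 for 48 h against 24 h at 3000 µM, and 1382496_at gave 0.33, 0.54, 0.24, 0.61 and 0.36. In place of the Prox1 lead, 1381417_at gave 0.0531 against vehicle and 0.11 against 300 µM at 24 h. Onecut1 1387760_a_at gave 0.13 for the change of the 3000 µM effect.

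Counts of called probe sets moved by over 1.5 times as follows. At 300 µM they were 1 at 24 h (the Hnf4a lead) and 2 at 48 h (the Cebpa and Prox1 leads) with array weights, and 1 at each time (the Hnf4a and the Prox1 lead) when only the compared groups were fitted. At 3000 µM at 48 h 7 were called with a filter at the 75th percentile, where fewer probe sets are tested. Between vehicle groups 4 were called with log2(signal + 100), with array weights or with only the compared groups, and 1 to 3 without single arrays. For the change of the 3000 µM effect 1 was called with medians centred, with no filter, with the 75th percentile filter or with only the compared groups, and 1 to 3 without single arrays. The cause of these shifts was otherwise not tested. Centring array medians moved the median of all probe sets by 0.065 at 24 h and 0.041 at 48 h. Replicates were numbered in accession order, which pairs nothing. The running numbers in the titles, whose meaning the labels do not give, form sets with 1 array of each group, and a fit with these sets as a block changed 1 call of a single probe set: the Foxa3 difference of 0.49 between vehicle groups was called (limma adjusted p = 0.0412).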
